A study of Mus musculus with 8 samples.

Results

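Guanylate-binding proteins, encoded by the Gbp genes, were followed across 4 populations of dendritic cell progenitors from mouse bone marrow. The 6 genes described are Gbp2b, Gbp3, Gbp4, Gbp5, Gbp7 and Gbp11, out of 19938 genes with a probe set annotated to that gene alone. They were chosen by family and with their values in these arrays known, so their levels and most of their differences are given as a description, with no test. The question put to them was which were raised in Id2-GFP- pre-CD8 alone and which were already present in CDP. CDP stands for common dendritic cell progenitor in this field, and pre-CD8 is a progenitor name that the labels do not define.

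The groups were Id2-GFP+ pre-CD8, Id2-GFP- pre-CD8, Id2-GFP+ CDP and Id2-GFP- CDP, with 2 Affymetrix mouse gene arrays each. All were flow-sorted cells of bone marrow from heterozygous mice carrying a green reporter. Sample titles name an Id2-IRES-GFP reporter for every group, whereas the genotype field names that reporter for the 2 Id2-GFP- CDP samples and Zbtb46-GFP for the other 6. Comparisons with Id2-GFP- CDP thus also differ in that field. Age and sort gates are not given in the sources used here. Whether replicates were separate animals is not stated, and p-values therefore reflect the spread between these samples, which may be technical.

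The labels were first set against the arrays. Id2, whose protein binds and inhibits E proteins, had log2 intensities of 9.26 to 10.99 on the 4 Id2-GFP+ arrays and 5.14 to 7.18 on the 4 Id2-GFP- arrays. Of 6 measured genes of progenitor gates, among them Flt3, Csf1r and Kit, every one lay above a rough lower reference on both arrays of each group, except Il7r in Id2-GFP+ CDP. That reference was the 95th percentile of 1194 smell receptor genes on the same array, log2 5.56 to 5.80, and it is no detection call. Of 9 markers of conventional type 1 dendritic cells, 7 lay above it on both arrays of each Id2-GFP+ group. In each Id2-GFP- group 5 of the 9 did. Xcr1 and Itgae were not above it on both arrays of any group. In Id2-GFP- pre-CD8, Clec9a was below it on replicate 1 (5.47) and above it on replicate 2 (6.28). Replicate arrays correlated across genes with r of 0.984 to 0.989. The arrays formed a brighter and a dimmer set by mean intensity, 461 to 478 and 402 to 414, and each set held 1 array per group.

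Guanylate-binding proteins are large GTPases of the dynamin superfamily whose genes are switched on by interferons, above all interferon gamma. They assemble on the vacuoles of intracellular parasites and on bacteria in the cytosol, help to break these open and promote inflammasome activation. Interferon signals reach such genes through STAT and IRF factors, which bind the interferon-stimulated response element (ISRE) and the gamma-activated site (GAS). In the RefSeq gene table the mouse genes lay in 2 clusters. Gbp5, Gbp7, Gbp3, Gbp2b and Gbp2 are neighbours on chromosome 3, and Gbp8, Gbp9, Gbp4, Gbp10, Gbp6 and Gbp11 lie on chromosome 5. Gbp11 is annotated there as a transcribed pseudogene, and Gbp2b carries the older name Gbp1. Probes designed for a paralog may also bind the RNA of its relatives, and all values of the family are therefore less certain, most of all those of the chromosome 5 genes.

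The members fell into 3 patterns, and Gbp7 had traits of the first 2. Gbp5 and Gbp3 of chromosome 3 were high in both Id2-GFP- populations. Gbp7, of the same chromosome, was higher on average in both Id2-GFP- populations too, but its CDP groups overlapped. Its Id2-GFP- pre-CD8 arrays also exceeded the other 6. All 3 genes were lowest on average in Id2-GFP+ pre-CD8. Gbp4 and Gbp11 of chromosome 5 were highest in Id2-GFP- pre-CD8, and Gbp2b lay near the floor everywhere. By a rule that asked for all 4 CDP arrays above the smell receptor reference, Gbp3, Gbp4 and Gbp7 were present in CDP. A gene counted as raised in Id2-GFP- pre-CD8 alone when it missed that test, both of its Id2-GFP- pre-CD8 arrays exceeded the other 6, and that group's mean exceeded the next by at least 1 log2. Gbp11 met this with a gap of 1.87, while Gbp5 and Gbp2b met neither description. The lowest CDP array of Gbp4, at 6.30, was just inside the presence test, whose reference there was 5.60, and the lowest of Gbp5, at 5.10, was outside it, against 5.80. With the 99th percentile as the reference (6.34 on that array), or the median of all genes, Gbp4 passed on 3 of 4 CDP arrays and joined Gbp11, which left 2 genes present in CDP.

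**Figure D1:**
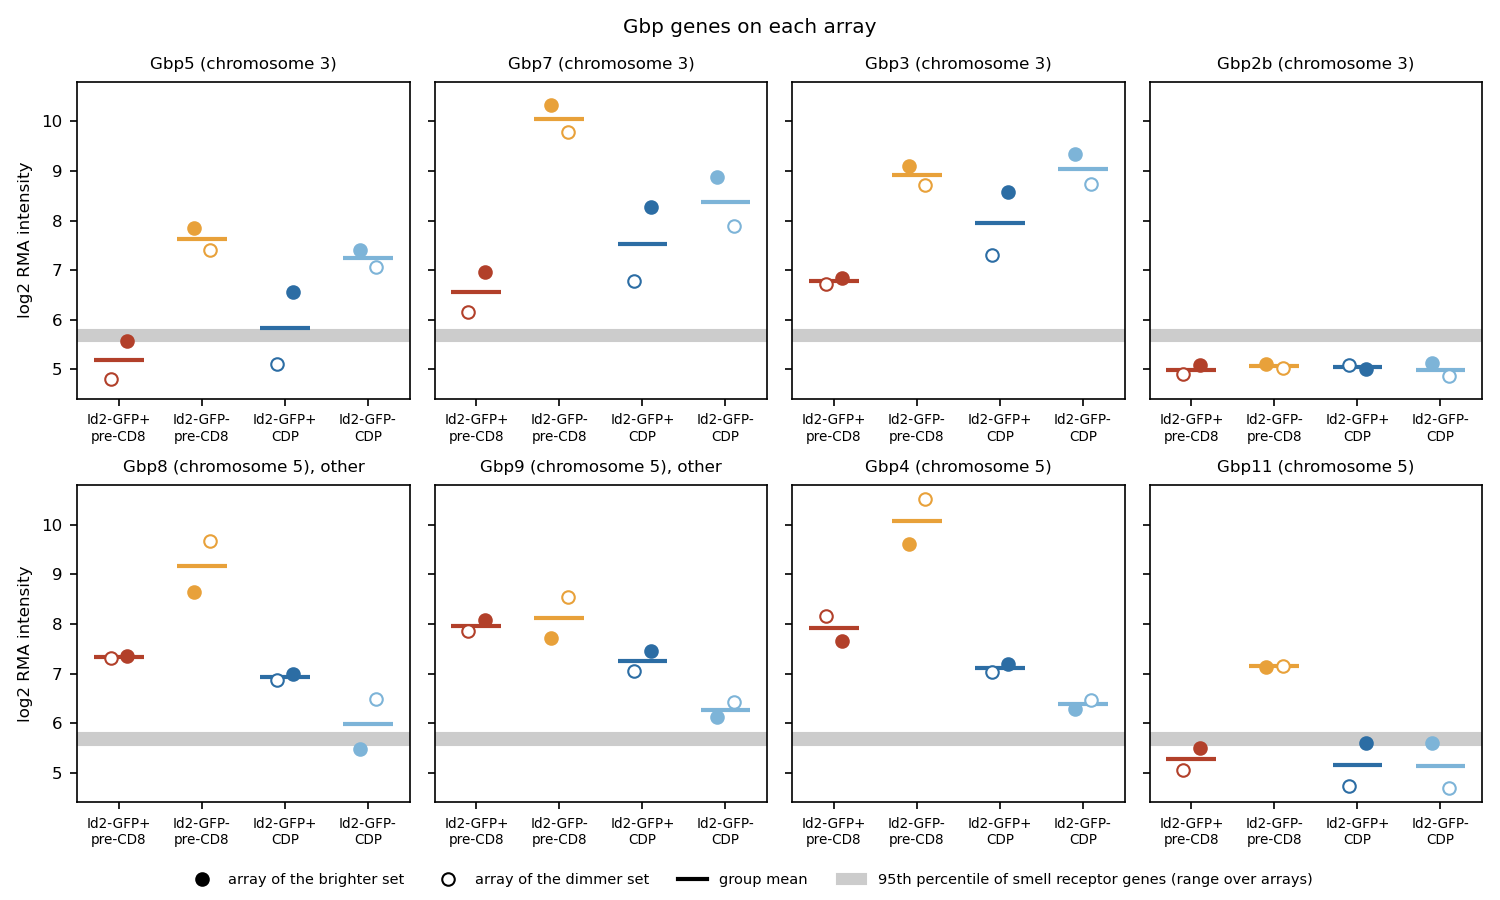
Log2 intensity (vertical axis) of the 6 member genes and of Gbp8 and Gbp9 on each array, in the order Id2-GFP+ pre-CD8, Id2-GFP- pre-CD8, Id2-GFP+ CDP and Id2-GFP- CDP. Points are arrays (filled for the brighter set, open for the dimmer set), bars are group means, and the grey band is the range over arrays of the reference from smell receptor genes. Gbp4 and Gbp11 stand highest in Id2-GFP- pre-CD8, Gbp3 and Gbp5 are high in both Id2-GFP- groups, and Gbp2b stays between 4.87 and 5.13.

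The chromosome 3 genes were taken first. RefSeq promoter windows were matched for 4 members, Gbp5, Gbp7, Gbp3 and Gbp2b. The stretch upstream of each annotated gene start is shown because all 4 hold the same interferon motif while their levels differed. It is read 5′ to 3′ on the plus strand of GRCm38.p6, at chr3:142496684-142496933 for Gbp5, chr3:142530086-142530335 for Gbp7, chr3:142559794-142560015 for Gbp3 and chr3:142594597-142594815 for Gbp2b. Capitals mark matches on either strand to the ISRE core, which is GAAA, any 2 bases and GAAA again. On the strand printed it reads TTTC, any 2 bases and TTTC.
Gbp5: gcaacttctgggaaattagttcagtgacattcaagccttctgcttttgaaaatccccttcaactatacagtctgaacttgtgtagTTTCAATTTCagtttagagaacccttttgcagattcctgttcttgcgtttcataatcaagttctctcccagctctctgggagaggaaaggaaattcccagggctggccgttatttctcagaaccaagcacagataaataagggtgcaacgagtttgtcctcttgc
Gbp7: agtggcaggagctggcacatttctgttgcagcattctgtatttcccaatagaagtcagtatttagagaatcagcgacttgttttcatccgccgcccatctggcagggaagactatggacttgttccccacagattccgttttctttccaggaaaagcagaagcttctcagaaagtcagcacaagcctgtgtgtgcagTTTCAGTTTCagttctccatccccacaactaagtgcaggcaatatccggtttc
Gbp3: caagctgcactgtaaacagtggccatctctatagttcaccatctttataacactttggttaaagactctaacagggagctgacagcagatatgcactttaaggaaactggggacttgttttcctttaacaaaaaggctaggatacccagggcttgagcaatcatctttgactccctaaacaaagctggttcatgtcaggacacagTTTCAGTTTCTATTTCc
Gbp2b: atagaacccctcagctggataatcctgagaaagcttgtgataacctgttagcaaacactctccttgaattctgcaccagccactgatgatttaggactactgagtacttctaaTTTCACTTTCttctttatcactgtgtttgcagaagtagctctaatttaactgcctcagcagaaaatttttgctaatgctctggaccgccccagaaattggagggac

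The Gbp5, Gbp7 and Gbp2b stretches held 1 ISRE core each, and the Gbp3 stretch held 2 that overlap. Gbp7 and Gbp3 carry the same letters, TTTCAGTTTC, whose first base lies 53 and 17 bases before the annotated gene start. In Gbp5 the core is TTTCAATTTC, 165 bases before it. The GAS letters TTCNNNGAA occurred 2 times each in the Gbp5 and Gbp7 stretches and in neither of the others. Over all 32851 windows of 300 bases, 3.44% held the ISRE core and 8.3% the GAS letters. The ISRE core was thus present upstream of Gbp2b, the flat member, as well as of its varying neighbours. A match is a description of the letters, not evidence of binding.

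Gbp7, which in mouse macrophages has been linked to delivery of oxidative and autophagic defences, had log2 intensities of 6.15 and 6.97 in Id2-GFP+ pre-CD8 against 10.33 and 9.78 in Id2-GFP- pre-CD8. In CDP it had 6.79 and 8.28 with the reporter on, against 8.87 and 7.89 with it off. Both Id2-GFP- pre-CD8 arrays exceeded the other 6, and the CDP groups overlapped. In pre-CD8 the difference of Id2-GFP+ minus Id2-GFP- was -3.49 ± 0.53 (log2 ± SE, n = 2 each), an 11.3-fold lower level with the reporter on, with -3.36 within the brighter and -3.63 within the dimmer set. In this gene Id2-GFP- pre-CD8 lay 1.67 ± 0.53 above Id2-GFP- CDP.

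Gbp5, which in mouse has been tied to assembly of the NLRP3 inflammasome, had 4.80 and 5.57 in Id2-GFP+ pre-CD8, against 7.85 and 7.41 in Id2-GFP- pre-CD8. Its values were 5.10 and 6.56 in Id2-GFP+ CDP, against 7.41 and 7.07 in Id2-GFP- CDP. All 4 Id2-GFP- arrays exceeded all 4 Id2-GFP+ arrays, a pattern whose share among all genes was not counted. The pre-CD8 reporter difference was -2.45 ± 0.46, and Id2-GFP- pre-CD8 differed from Id2-GFP- CDP by 0.39 ± 0.46, with groups that overlapped.

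Gbp3, another member of the chromosome 3 cluster, had 6.72 and 6.85 in Id2-GFP+ pre-CD8, against 9.10 and 8.72 in Id2-GFP- pre-CD8. It had 7.31 and 8.58 in Id2-GFP+ CDP and 9.34 and 8.74 in Id2-GFP- CDP. Again the 4 Id2-GFP- arrays lay above the 4 Id2-GFP+ arrays, and this gene alone among the members had its highest mean in Id2-GFP- CDP. The reporter difference in pre-CD8 was -2.12 ± 0.40. Between the Id2-GFP- populations the difference was -0.13 ± 0.40, within its error.

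In Id2-GFP+ cells the stage difference (pre-CD8 minus CDP) of these 3 genes was negative, and smaller within the dimmer array set. It was -1.16 ± 0.40 for Gbp3, -0.97 ± 0.53 for Gbp7 and -0.65 ± 0.46 for Gbp5. In that order it was -1.74, -1.31 and -0.99 within the brighter set and -0.58, -0.64 and -0.30 within the dimmer set. Without Id2-GFP+ CDP replicate 2, the higher of its pair for all 3, the values were -0.52, -0.23 and 0.08. That fit set a lone array of the dimmer set against a pair with 1 array of each set.

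Gbp2b, an interferon-gamma-inducible family member with a prenylation signal, had 4.90 and 5.09 in Id2-GFP+ pre-CD8, against 5.11 and 5.02 in Id2-GFP- pre-CD8, then 5.08 and 5.01 in Id2-GFP+ CDP and 5.13 and 4.87 in Id2-GFP- CDP. No array lay above the smell receptor reference and all groups overlapped. Group means spanned 0.07, less than the standard error of a difference, 0.16. These arrays do not show whether the gene was expressed at a level below that reference.

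On chromosome 5, Gbp4, reported in mouse cells to restrain IRF7 signalling, had 8.16 and 7.67 in Id2-GFP+ pre-CD8, against 9.62 and 10.51 in Id2-GFP- pre-CD8. It had 7.04 and 7.19 in Id2-GFP+ CDP and 6.30 and 6.46 in Id2-GFP- CDP. The 4 groups did not overlap, with Id2-GFP- pre-CD8 highest, Id2-GFP+ pre-CD8 next, then Id2-GFP+ CDP and last Id2-GFP- CDP. How large a share of all genes had 4 separate groups was not counted. The stage difference in Id2-GFP- cells, pre-CD8 minus CDP, was 3.69 ± 0.31 (3.32 within the brighter set and 4.05 within the dimmer set), a 12.9-fold higher level. In Id2-GFP+ cells it was 0.80 ± 0.31. The reporter difference in pre-CD8 was -2.15 ± 0.31.

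Gbp11, the annotated pseudogene, had 5.05 and 5.50 in Id2-GFP+ pre-CD8, against 7.14 and 7.16 in Id2-GFP- pre-CD8. Its CDP values were 4.73 and 5.60 with the reporter on and 5.60 and 4.70 with it off. The 2 Id2-GFP- pre-CD8 arrays stood apart and the other 3 groups overlapped one another. The difference was -1.87 ± 0.36 for the reporter in pre-CD8 and 2.00 ± 0.36 for stage in Id2-GFP- cells. Because RMA compresses low values, the size of a difference against arrays near the reference may be understated, which was not examined here. Over all genes, 8.22% had both Id2-GFP- pre-CD8 arrays above the other 6, as Gbp4, Gbp7 and Gbp11 did, and 21.5% had both Id2-GFP+ pre-CD8 arrays below both Id2-GFP- ones, as 5 of the 6 members did. The choice of the genes used these patterns, so nothing is read from the counts.

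**Figure D2:**
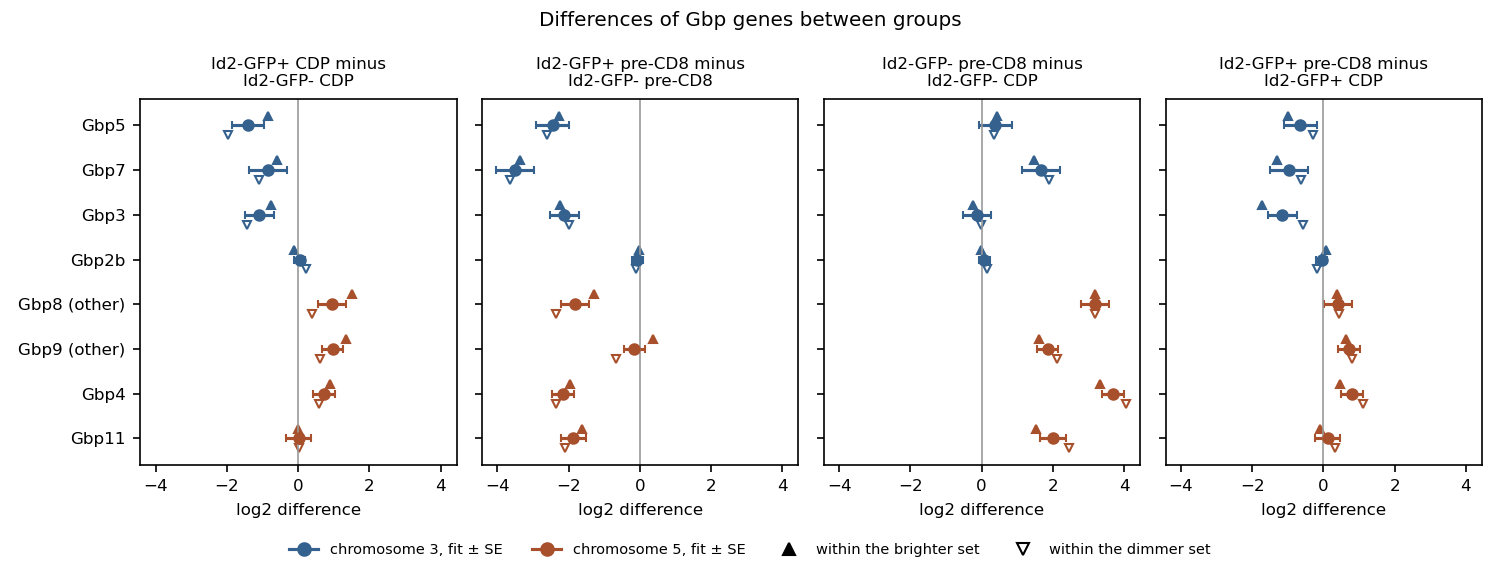
Log2 difference with standard error (horizontal axis) for each Gbp gene (rows) in 4 comparisons, one panel each, with triangles for the values within the brighter (filled) and dimmer (open) array set. In pre-CD8 the reporter difference is between -3.49 and -1.87 for 5 of 6 members and -0.07 for Gbp2b; between the Id2-GFP- stages Gbp4 reaches 3.69 while Gbp3 and Gbp5 lie within 1 standard error of 0.

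The rule named no difference between reporter classes within CDP, and there the members were tested. CDP levels did enter the rule, and the members were chosen with their values known. The p-values of the members are therefore not independent of that choice, and nothing is read from the counts. By limma 0 of 6 members passed an adjusted p of 0.05 in Id2-GFP+ against Id2-GFP- CDP, where 0.597% of all genes did. An unadjusted p under 0.05 was reached by 3 members, against 5.51% of all genes. These were Gbp5 at -1.41 ± 0.46 (limma adjusted p = 0.544), Gbp3 at -1.09 ± 0.40 (adjusted p = 0.725) and Gbp4 at 0.73 ± 0.31 (adjusted p = 0.882). Gbp7 lay at -0.85 ± 0.53 (limma adjusted p = 1), with Gbp11 at 0.01 and Gbp2b at 0.05.

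Gbp3 and Gbp5 had both Id2-GFP+ CDP arrays below both Id2-GFP- CDP arrays, and Gbp4 had them above. CDP groups that did not overlap, in either direction, were found for 25.0% of all genes. With the array set as a block, the limma adjusted p was 0.00477 for Gbp5, 0.0141 for Gbp3 and 0.0223 for Gbp7, so that 3 members passed, all lower in Id2-GFP+ CDP. Over all genes, that fit called 7.85%, against 0.597% without the block. The array sets were drawn from the mean intensity of these same arrays, and no label names a batch. The p-values of the block fit may therefore be too small. Without Id2-GFP+ CDP replicate 1, an array of the dimmer set, these differences were -0.68 for Gbp5, -0.45 for Gbp3 and -0.10 for Gbp7. That fit set a lone array of the brighter set against a pair with 1 array of each set. Within the brighter set the differences were -0.85, -0.76 and -0.59 in the same order, and within the dimmer set -1.97, -1.43 and -1.10. Leaving out any single array kept the count of members passing at 0.

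Of the other family genes, Gbp8 and Gbp9 of chromosome 5 had a probe set of their own. Gbp8 had 7.32 and 7.36 in Id2-GFP+ pre-CD8, against 8.65 and 9.67 in Id2-GFP- pre-CD8, then 6.88 and 6.99 in Id2-GFP+ CDP and 5.48 and 6.49 in Id2-GFP- CDP. Like those of Gbp4, its groups did not overlap and stood in the same order. The stage difference in Id2-GFP- cells was 3.18 ± 0.39 (limma adjusted p = 0.00829), where 1.63% of all genes were called, 1.03% as higher in pre-CD8. In pre-CD8 the reporter difference was -1.82 ± 0.39 (limma adjusted p = 0.0316), where 6.26% of genes were called, but that call was lost when replicate 2 of Id2-GFP- pre-CD8 or any array of Id2-GFP+ pre-CD8 was left out, with an adjusted p of up to 0.155.

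Gbp9 had 7.86 and 8.08 in Id2-GFP+ pre-CD8, against 7.72 and 8.54 in Id2-GFP- pre-CD8, then 7.05 and 7.45 in Id2-GFP+ CDP and 6.12 and 6.44 in Id2-GFP- CDP. The pre-CD8 groups overlapped, and both lay above both CDP groups. The stage difference in Id2-GFP- cells was 1.85 ± 0.30 (limma adjusted p = 0.0237, up to 0.173 when either array of Id2-GFP- CDP, or replicate 2 of Id2-GFP- pre-CD8, was left out). The pre-CD8 reporter difference was -0.16 ± 0.30 (limma adjusted p = 0.982). Neither gene passed in the CDP reporter comparison, Gbp8 being at 0.95 ± 0.39 and Gbp9 at 0.97 ± 0.30 (limma adjusted p = 0.858 and 0.484).

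Chromosome position was not part of the rule, and the values were set against it as a description. Across the 8 arrays, which are 4 pairs sharing a group, Pearson's r was 0.86 to 0.95 among Gbp3, Gbp5 and Gbp7. It was 0.56 to 0.97 among Gbp4, Gbp8, Gbp9 and Gbp11. Between the clusters, Gbp2b left out, r lay between -0.39 (Gbp3 and Gbp9) and 0.85 (Gbp7 and Gbp11). Gbp3 and Gbp4, at 0.07, were nearly unrelated. Shared probe sequence was not examined here, and its part in the likeness within chromosome 5 was not tested.

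Among genes whose group means span at least 1 log2, those most like a member over the 8 arrays differed by member. The members themselves and predicted genes (Gm and Rik symbols) were left out of this ranking. Gbp3 was closest to Ddx1 (r = 0.995), then Tfpi, Ripor1 and Nudt19. Gbp5 was closest to Inka1 (0.993), then Ern1, Gabarapl1 and Slc27a1, and Gbp7 to Abhd4 (0.994), then Cd81, Dgkz and Parp10. Gbp4 was closest to Ppp1r16b (0.985), with Gfra1, Tmem121 and Gbp8 next. Gbp11 was closest to Peak1 (0.982), followed by the interferon targets Xaf1 and Oas1b and by Cux1. The flat Gbp2b reached no more than 0.677, with F2rl3.

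The other interferon-inducible GTPases were measured for 5 of 11 listed genes. In Id2-GFP+ against Id2-GFP- pre-CD8, 1 of 5 was lower and 0 were higher, where 2.7% and 3.57% of all genes were, and the list's median difference was -0.45, beside -0.01 over all genes. The gene called was Iigp1, an immunity-related GTPase that loads onto parasite vacuoles. It had 4.21 and 5.61 in Id2-GFP+ pre-CD8, against 7.46 and 7.01 in Id2-GFP- pre-CD8, then 4.44 and 5.35 in Id2-GFP+ CDP and 5.20 and 4.66 in Id2-GFP- CDP. Its Id2-GFP- pre-CD8 arrays stood above the other 6, as those of Gbp11 did. The difference was -2.32 ± 0.47 (limma adjusted p = 0.0232, up to 0.117 without either Id2-GFP- pre-CD8 array or Id2-GFP+ pre-CD8 replicate 1).

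Against Id2-GFP- CDP, Iigp1 in Id2-GFP- pre-CD8 was at 2.30 ± 0.47 (limma adjusted p = 0.0582). The 4 that did not pass in pre-CD8 were Gm12250, the immunity-related GTPase also called Irgb10, at -1.61 ± 0.46, Mx2, an antiviral dynamin-like GTPase, at -0.45 ± 0.21, Irgm1, a regulator of immunity-related GTPases, at -0.34 ± 0.53 and Mx1, the antiviral relative of Mx2, at 1.06 ± 0.36. With the array set as a block 3 of 5 were called in pre-CD8, 1 of them higher, in a fit that called 24.2% of all genes. Dynamin-superfamily GTPases not known as interferon-induced (9 of 10 measured) gave 0 calls by limma in that comparison, with 1 at an unadjusted p under 0.05 (16.1% of all genes) and a median of 0.11. The 6 measured genes of prenylation, which attaches the lipid anchor of some family members, also gave 0 calls, with 0 at an unadjusted p under 0.05.

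Targets of type I interferon were measured for 23 of 25 listed genes. In Id2-GFP+ against Id2-GFP- pre-CD8, 8 were lower, 1 was higher and 14 did not pass. Of all genes, 2.7% were lower and 3.57% higher there. The median of the targets was -0.82, beside -0.01 over all genes. The targets lower with the smallest p were the oligoadenylate synthetase-like Oasl2 and Oasl1, Rtp4 and the RNA sensor Ddx58. Ddx58, which encodes RIG-I, had 6.60 and 7.58 in Id2-GFP+ pre-CD8, against 9.74 and 9.38 in Id2-GFP- pre-CD8, a difference of -2.47 ± 0.40 (limma adjusted p = 0.00883). In CDP it had 6.90 and 7.83 with the reporter on and 6.31 and 5.93 with it off, so that the Id2-GFP- pre-CD8 arrays were highest, the Id2-GFP- CDP arrays lowest and the Id2-GFP+ groups overlapped between them. Cmpk2, a nucleotide kinase, was the 1 target higher, by 1.07.

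Those counts moved with single arrays. The pre-CD8 comparison called 2 targets without replicate 1 of Id2-GFP- pre-CD8, and dropping replicate 1 or replicate 2 of Id2-GFP+ pre-CD8 gave 3 or 4. With the array set as a block the count was 19, with 4 higher and 15 lower, beside 24.2% of all genes called in that fit and 6.26% without the block. Oasl2 and Rtp4 passed with every array left out in turn. Ddx58 was lost without Id2-GFP- pre-CD8 replicate 1 (limma adjusted p = 0.0513), and Cmpk2 with 6 of the 8 arrays left out in turn (up to 0.2).

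Between the Id2-GFP- stages, 6 of 23 type I targets were higher in pre-CD8 (1.03% of all genes) and 0 lower, with a median of 0.86. Rtp4 stood at 3.55 ± 0.42 (limma adjusted p = 0.00694) and Ddx58 at 3.45 ± 0.40 (limma adjusted p = 0.0062), sizes near the 3.69 of Gbp4. Without replicate 2 of Id2-GFP- CDP neither passed (limma adjusted p = 0.0732 and 0.0605). Leaving out replicate 1 of Id2-GFP- CDP gave 2 genes, leaving out its replicate 2 gave 0, and leaving out replicate 1 of Id2-GFP- pre-CD8 gave 2, while the array set as a block gave 18, where it called 12.5% of all genes, against 1.63% without it. In the CDP reporter comparison 0 of 23 passed by limma, beside 0.597% of all genes. An unadjusted p under 0.05 was reached by 3, beside 5.51% of all genes. With the array set as a block 6 were called (7.85% of all genes).

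**Figure D3:**
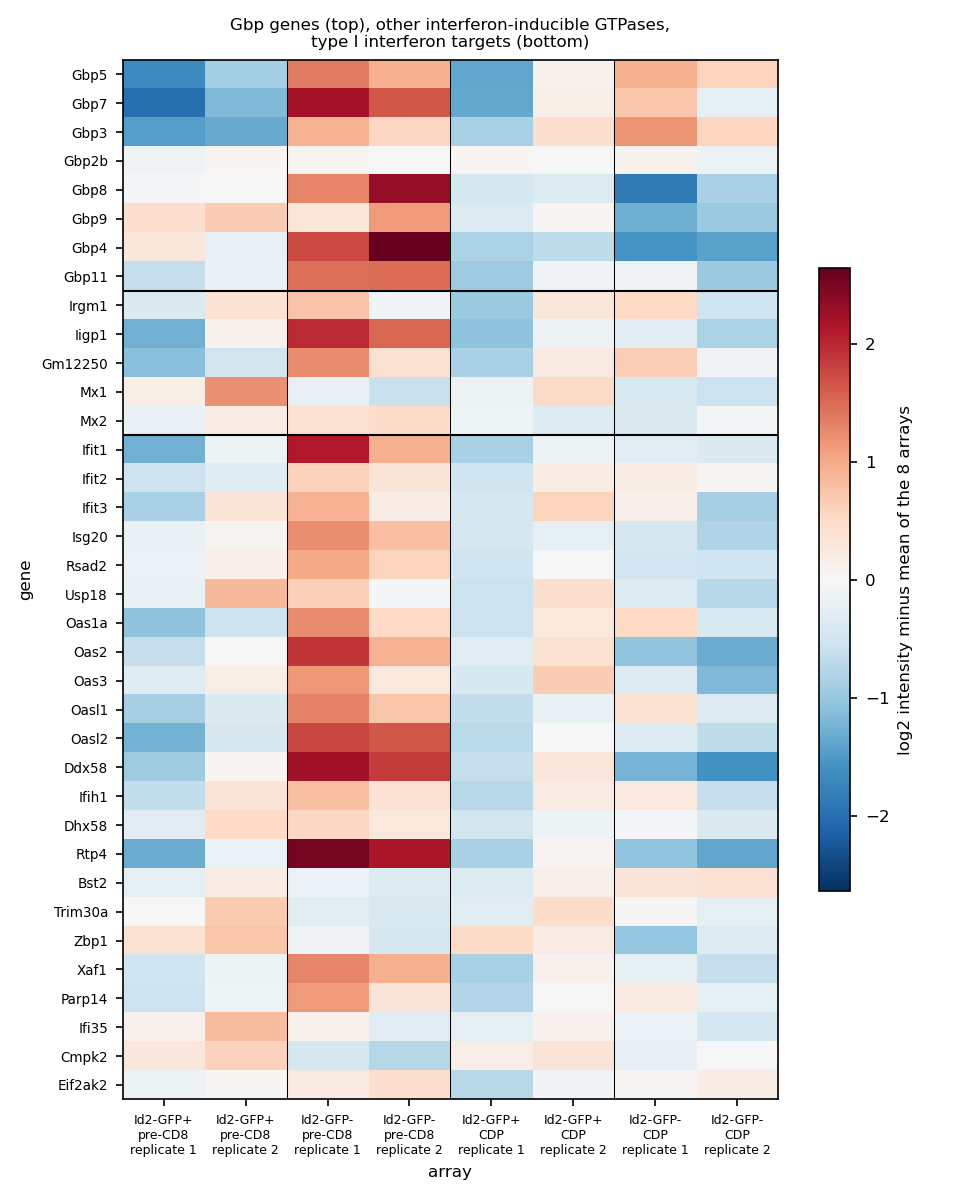
Log2 intensity on each array (columns) relative to the gene's mean over 8 arrays (colour), for Gbp genes, the other inducible GTPases and the type I interferon targets (rows). Rtp4, Oasl2 and Ddx58 are highest on the 2 Id2-GFP- pre-CD8 arrays, like Gbp4 and Gbp11, while Gbp3 and Gbp5 are high on the Id2-GFP- CDP arrays too.

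Of all genes, 3.57% were higher and 2.7% lower in Id2-GFP+ against Id2-GFP- pre-CD8. Genes of interferon receptors and signalling were measured for 15 of 16 listed, with a median of 0.15 in that comparison. There 3 were higher and 0 lower: the kinases Jak2 (1.92 ± 0.31, limma adjusted p = 0.00892) and Tyk2 (1.11 ± 0.24, limma adjusted p = 0.032), and the transcription factor Irf8 (1.14 ± 0.22, limma adjusted p = 0.0205). Without either Id2-GFP- pre-CD8 array 1 gene of the list was called, and without Id2-GFP+ pre-CD8 replicate 2 the count was 0. With the array set as a block the count was 10, with 6 higher and 4 lower, where 24.2% of all genes were called. After quantile normalization 4 were higher and 1 lower, where 12.9% of all genes were called. The other interferon regulatory factors named here did not pass. Irf1 was at -0.52 ± 0.25, Irf7 at 0.62 ± 0.37 and Irf9 at 0.15 ± 0.20.

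Targets of interferon gamma other than GTPases (13 of 14 measured) had a median of 0.09 in the pre-CD8 reporter comparison. Of these targets, 2 were higher in Id2-GFP+ pre-CD8 and 0 lower, beside 3.57% and 2.7% of all genes. The larger was Ciita, the master activator of MHC class II, at 3.66 ± 0.32 (limma adjusted p = 0.000858), a direction opposite to that of Gbp7, Gbp5 and Gbp3. It was the 1 gene of the interferon lists called in the CDP reporter comparison, at 1.98 ± 0.32 (limma adjusted p = 0.0442), a call lost with 6 of the 8 arrays left out in turn (adjusted p of up to 0.274). Tapbp, which loads peptides on MHC class I, was the other gene called in the pre-CD8 reporter comparison, at 1.08 ± 0.18 (limma adjusted p = 0.0111, up to 0.11 when either array of Id2-GFP- pre-CD8 or replicate 2 of Id2-GFP+ pre-CD8 was left out).

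In the pre-CD8 reporter comparison 6.26% of all genes were called. Near that share, 1 of 15 genes of GBP targeting and inflammasome partners passed. This was Pycard, the inflammasome adaptor, higher in Id2-GFP+ pre-CD8 by 1.00 ± 0.17 (limma adjusted p = 0.0104, up to 0.102 when replicate 2 of either pre-CD8 group was left out). Il18, an inflammasome substrate, was at -1.30 ± 0.36 (limma adjusted p = 0.0802). No gene of any kind passed by limma between the Id2-GFP+ stages (0.0% of genes, with 3.22% at an unadjusted p under 0.05), so the lists held 0 calls there. With the array set as a block, 2 signalling genes and 1 type I target passed in that comparison, where 2.08% of all genes did.

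**Figure D4:**
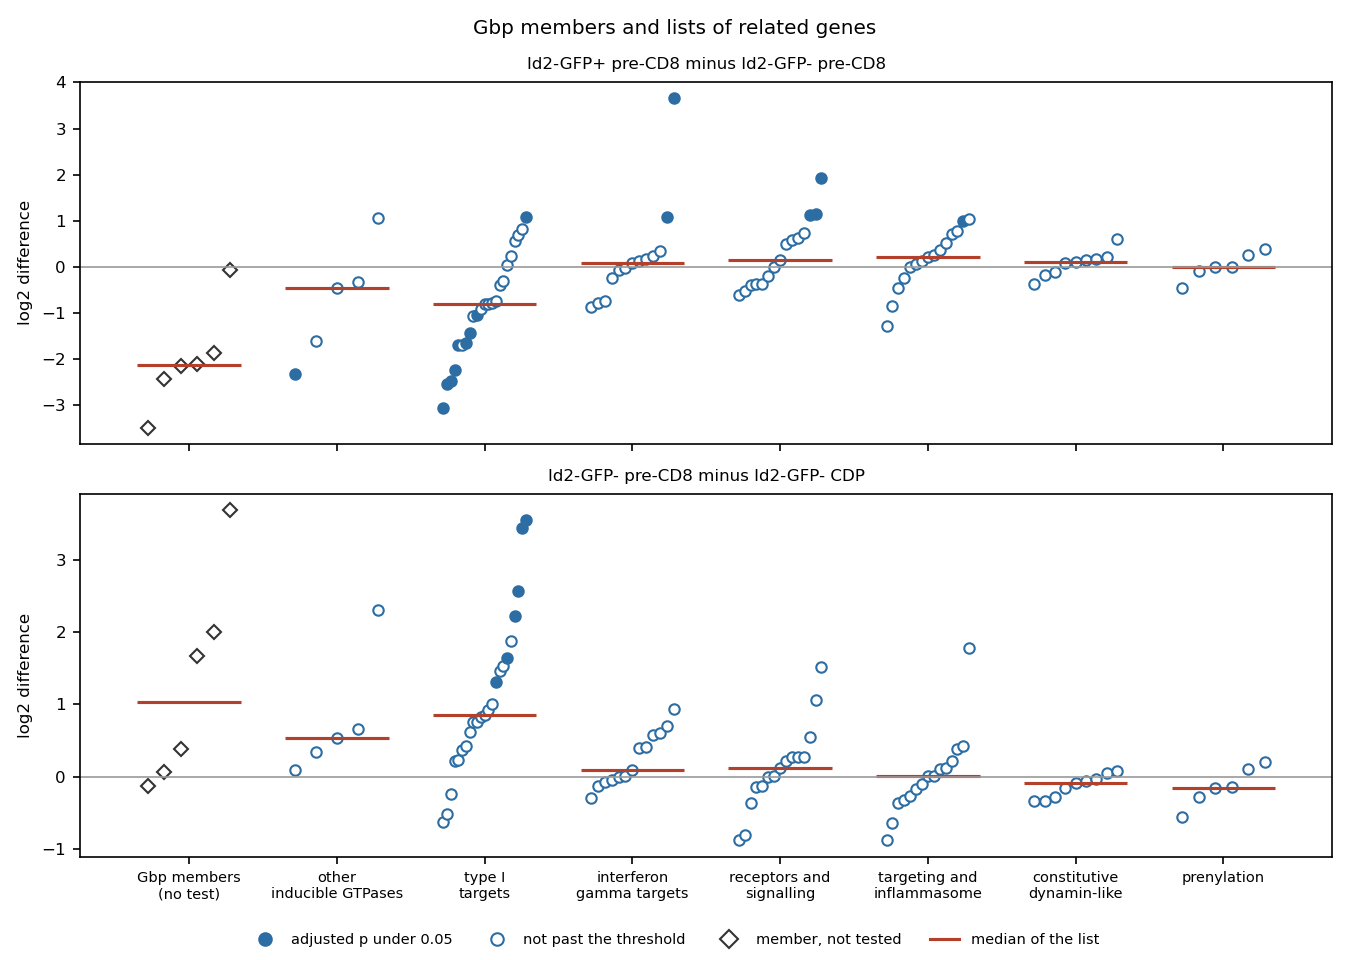
Log2 difference (vertical axis) of each measured gene of the lists (points, one column per list), with the list's median as a line, in the reporter comparison of pre-CD8 (upper panel) and the stage comparison of Id2-GFP- cells (lower panel). Filled points passed an adjusted p of 0.05 by limma, open circles did not, and diamonds are the Gbp members, which were not tested here. Type I targets have medians of -0.82 and 0.86, whereas the signalling and interferon gamma lists lie near 0.

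Markers of other cell types also differed between these groups. They are given as summed linear intensities, which the brightest genes of a list dominate, and as counts by limma in the pre-CD8 reporter comparison, where 3.57% of all genes were higher and 2.7% lower in Id2-GFP+. The 8 measured markers of plasmacytoid dendritic cells, of 10 listed, summed to 2145 to 2178 in Id2-GFP+ pre-CD8. The same sum was 3735 to 6002 in Id2-GFP- pre-CD8. It was 1990 to 2343 in Id2-GFP+ CDP and 2599 to 3193 in Id2-GFP- CDP. Of these genes 3 were lower in Id2-GFP+ pre-CD8 and 0 higher. Their chemokine receptor Ccr9 had log2 intensities of 6.36 and 6.62 in Id2-GFP+ pre-CD8, against 8.15 and 8.71 in Id2-GFP- pre-CD8, and did not exceed the smell receptor reference in CDP. Spib, another of them, was not above it on both arrays of Id2-GFP- pre-CD8.

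Genes of progenitor gates summed to 5915 to 8081 with the reporter on and 14847 to 18347 with it off in pre-CD8, then 6858 to 10582 (on) and 11051 to 14658 (off) in CDP. Of the 6 measured, 5 were lower in Id2-GFP+ pre-CD8 and 0 higher. The 9 measured B lineage markers had sums of 7115 to 7588 with the reporter on and 5628 to 5671 with it off in pre-CD8, then 6610 to 6884 (on) and 4219 to 4951 (off) in CDP. Their calls ran both ways, with Cd24a higher in Id2-GFP+ pre-CD8, by 0.59, and Ebf1 (-2.97), Vpreb1 (-1.14) and Blk (-1.13) lower. Ebf1 exceeded the smell receptor reference on both arrays of Id2-GFP- pre-CD8 and of no other group, while Cd79a and Ms4a1 did so in none.

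The 9 markers of conventional type 1 dendritic cells summed to 10299 to 15761 with the reporter on and 2525 to 3006 with it off in pre-CD8, then 5516 to 6630 (on) and 2952 to 3006 (off) in CDP, and 6 were higher in Id2-GFP+ pre-CD8 and 0 lower. The 8 measured of 9 monocyte and macrophage markers summed to 9923 to 10477 with the reporter on and 2894 to 3128 with it off in pre-CD8, then 13854 to 15527 (on) and 12032 to 13500 (off) in CDP. Of these 4 were higher in Id2-GFP+ pre-CD8 and 1 lower, the growth factor receptor gene Csf1r (-1.09 ± 0.23, limma adjusted p = 0.0274). Both CDP groups thus exceeded both pre-CD8 groups in the monocyte sum. The 9 neutrophil and granule markers summed to 39626 to 45130 with the reporter on and 12612 to 15702 with it off in pre-CD8, then 56611 to 82304 (on) and 15561 to 25471 (off) in CDP. Here 6 were higher in Id2-GFP+ pre-CD8 and 1 lower, the granule enzyme gene Mpo (-1.96 ± 0.46, limma adjusted p = 0.0459), and Prtn3 was at 0.03. The 10 markers of T, NK and innate lymphoid cells had sums of 1101 to 1257 with the reporter on and 1062 to 1298 with it off in pre-CD8, then 1085 to 1406 (on) and 693 to 696 (off) in CDP, with 4 higher in Id2-GFP+ pre-CD8 and 0 lower. The part of these markers in the Gbp differences was not tested. In these sorted populations, a smaller share of cells that express a gene and less of its RNA per cell cannot be told apart.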

How the data were processed

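Affymetrix mouse gene arrays measured RNA of 8 sorted samples, 2 in each of 4 groups. The authors deposited linear intensity values made by RMA in Affymetrix Expression Console, with no versions stated, per the submitters' processing notes. RMA corrects background, normalises across arrays and compresses low values. The design had assumed log2 values, so the deposited intensity was converted to log2 and not normalised again. Gene names came from the platform annotation, which gave 1 symbol to 21789 of 28853 probe sets, several to 1621 and none to 5443. For the 999 genes with several single-symbol probe sets, the one with the highest mean was used, leaving 19938 genes.

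Group means were fitted over all 8 arrays with limma 3.58.1 in R 4.3.3, with an intensity-trended variance prior (4 residual and 8.19 total degrees of freedom). Tests were two-sided and p-values were adjusted by Benjamini-Hochberg over all 19938 genes, with a threshold of 0.05. The fit was tested on simulated data with independent noise on each array. That test does not cover deviations shared within an array set. Python 3.11.15 and matplotlib 3.10.9 were used for tables and figures. The number of arrays limits the precision. Promoter sequences are RefSeq's, on GRCm38.p6, in windows from 250 bases before to 50 after a gene start. No genome build is named in the array table, so positions of probe sets are not given. The gene and promoter positions in the text are RefSeq's.

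The members and the gene lists were chosen with earlier results of these data known. The text names the members, every measured gene of the other Gbp and inducible GTPase lists, up to 4 genes with the smallest p of each other list, some regulators, and the 4 genes most like each member. Cmpk2, Il18, Ccr9, Spib, Xcr1, Itgae, Clec9a, Ebf1, Vpreb1, Blk, Cd24a, Cd79a, Ms4a1, Mpo, Prtn3, Flt3, Csf1r, Kit and Il7r were named after their values were seen. Alternatives were the replicate number or the array set as a block, quantile normalization, leaving out dim genes, a prior without trend, the mean of probe sets and leaving out each array in turn.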

Additional observations from a re-analysis of the deposited data

Results flagged for a closer look

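Gbp4 was singled out because its reporter difference ran in opposite directions at the 2 stages on every array. Both Id2-GFP+ pre-CD8 arrays (8.16 and 7.67) lay below both Id2-GFP- pre-CD8 arrays (9.62 and 10.51), whereas both Id2-GFP+ CDP arrays (7.04 and 7.19) lay above both Id2-GFP- CDP arrays (6.30 and 6.46). The reporter difference in pre-CD8 minus that in CDP was -2.89 on the log2 scale. This difference was not tested, because the choice of the gene rested on the pre-CD8 values. The opposite order was not particular to Gbp4. Genes outside the members had it as well, among them Gbp8 and the type I targets Ddx58 and Rtp4. For these the same difference was -2.77, -3.72 and -3.88 (limma adjusted p = 0.135, 0.07 and 0.07). The share of all genes with such an order was not counted.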

How the results depend on the processing

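Over the alternatives, the Id2-GFP+ stage difference ran from -1.80 to -0.52 for Gbp3, from -1.72 to -0.23 for Gbp7 and from -1.38 to 0.08 for Gbp5, whose sign turned under 1 alternative. In the comparisons that were not tested, the sign also turned for Gbp2b (1 alternative in each of 3 comparisons), for Gbp3 between the Id2-GFP- stages (2) and for Gbp11 between the Id2-GFP+ stages (2). In the CDP reporter comparison 79 member values kept their side of the threshold and 3 passed it. The replicate number as a block left the count of members called in CDP at 0. It reduced the called type I targets to 3 in the pre-CD8 reporter comparison and to 3 between the Id2-GFP- stages. Deviations of equally numbered arrays correlated at 0.69 and 0.71 within a reporter class and between -0.69 and -0.63 for the other 4 pairs of groups. Replicate 1 was of the brighter set in both Id2-GFP- groups and of the dimmer set in both Id2-GFP+ groups. The signs thus followed the array set, and the numbers do not pair samples across reporter classes. With the array set as a block, called genes in the CDP reporter, pre-CD8 reporter, Id2-GFP- stage and Id2-GFP+ stage comparisons were 6, 19, 18 and 1 for type I targets and 3, 10, 5 and 2 for signalling genes. For the other inducible GTPases they were 1, 3 and 3 in the first 3 comparisons, and for the members 3 in CDP. These fits called 7.85%, 24.2%, 12.5% and 2.08% of all genes, more than without the block. Since the array sets were drawn from the arrays' own mean intensity, the p-values behind these counts may be too small. Quantile normalization, which called 12.9% and 4.3% of all genes in the comparisons named, gave 3 inducible GTPases and 5 signalling genes in the pre-CD8 reporter comparison, and 1 and 3 between the Id2-GFP- stages. Leaving out dim genes left 0 inducible GTPases called in pre-CD8, with fewer genes tested, and dropped Gbp2b and Gbp11. Leaving out single arrays gave 0 to 1 inducible GTPases in the pre-CD8 reporter and Id2-GFP- stage comparisons, 0 to 3 signalling genes in pre-CD8, and 2 to 11 and 0 to 7 type I targets in the same comparisons, with 0 for the members in CDP. The share of all genes called then ran from 2.34% to 6.59% in the pre-CD8 reporter comparison and from 0.386% to 1.64% between the Id2-GFP- stages. Where an array is left out, the lone array of its group is assumed to vary like the others. The cause of these shifts was not tested. Levels near the smell receptor reference, as of Gbp2b throughout and Gbp11 outside Id2-GFP- pre-CD8, allow no statement on presence or absence.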

Other observations

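Probe sets annotated to several Gbp genes were left out of the comparisons, since their value cannot be given to 1 gene. The set shared by Gbp2 and Gbp2b had log2 intensities of 5.41 and 5.33 in Id2-GFP+ pre-CD8, against 6.57 and 6.0 in Id2-GFP- pre-CD8, then 4.95 and 5.26 in Id2-GFP+ CDP and 5.45 and 5.35 in Id2-GFP- CDP. It was highest on the 2 Id2-GFP- pre-CD8 arrays, whereas the set of Gbp2b alone did not vary beyond 5.13. The set shared by 6 chromosome 5 genes (Gbp4, Gbp6, Gbp8, Gbp9, Gbp10 and Gbp11) had 7.06 and 7.17 in Id2-GFP+ pre-CD8, against 9.46 and 9.54 in Id2-GFP- pre-CD8, then 6.39 and 6.92 in Id2-GFP+ CDP and 6.49 and 6.26 in Id2-GFP- CDP. Its Id2-GFP- pre-CD8 arrays also stood above the other 6, as those of Gbp4, Gbp8 and Gbp11 did.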
